A study of Mus musculus with 8 samples.

Results

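The CXC chemokines described here are 9 genes of the 54532 in the deposited table, taken by gene name: *Cxcl1*, *Cxcl2*, *Cxcl5*, *Cxcl9*, *Cxcl10*, *Cxcl12*, *Cxcl13*, *Cxcl14* and *Cxcl16*. They were measured in MICFs, cardiac fibroblasts taken from the infarcted area of C57BL/6 mouse hearts on Day 6 after myocardial infarction (MI), produced in 8-week-old males by tying off the left anterior descending artery for good. All 4 groups carried lentiviruses that express MGT (*Mef2c*, *Gata4* and *Tbx5*), *Myocd*, *Sall4* and eGFP when doxycycline (Dox) is given, and therefore no group lacks the reprogramming factors. In the *in vivo* samples the cells had been injected into the left ventricle of C57BL/6 mice straight after ligation, and the hosts received Dox in drinking water and daily tacrolimus, methylprednisolone and mycophenolate mofetil, 3 immunosuppressants. In the *in vitro* samples the cells stayed in culture with Dox, and the medium described for reprogramming in culture contained SB431542, an inhibitor of TGF-β receptors, and baricitinib, an inhibitor of JAK kinases. Place, medium and drugs therefore differ together between the groups and cannot be told apart. The eGFP+ cells were sorted on Day 7 (1 week) or Day 14 (2 weeks), with 2 libraries in each of the groups *in vivo* 1 week, *in vitro* 1 week, *in vivo* 2 weeks and *in vitro* 2 weeks. Whether the 2 libraries of a group came from separate animals or wells is not stated, so the p-values measure only the spread between these libraries. The question addressed is which chemokine genes differ between reprogramming cells in the injured heart and the same cells in culture.

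CXC chemokines are small secreted proteins that guide leukocytes along gradients through G protein-coupled receptors. CXCL1, CXCL2 and CXCL5 carry an ELR motif and attract neutrophils through CXCR2, and their genes are classical targets of NF-κB downstream of IL-1, TNF and Toll-like receptors. CXCL9 and CXCL10 are induced by interferons and attract T cells and NK cells through CXCR3. CXCL12, which retains stem cells and guides leukocytes through CXCR4 and is scavenged by ACKR3, CXCL13, which guides B cells through CXCR5, and CXCL14 are made in resting tissues and are called homeostatic. CXCL16 is made as a membrane-bound protein that binds CXCR6 and is released by ADAM10. After MI the early chemokines bring in neutrophils and monocytes, and fibroblasts and macrophages are among the cells that make them.

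Expression is given as FPKM, fragments scaled by gene length and library size, which allows levels of different genes to be set side by side. The libraries held 12304242 to 14546904 fragments on genes, and 1 fragment on a gene of 1 kb was worth an FPKM between 0.0650 and 0.0905. Beyond depth, a scaling between libraries is already part of these values. The 10 most abundant genes took 12.1% to 15.0% of fragments *in vivo* against 6.03% to 7.30% *in vitro*. The 2 libraries of each group differed by more than sampling noise. Groups were compared on log2(FPKM + 0.1) with limma over the 15708 genes that reached 0.5 FPKM in 2 or more libraries. A gene is said to be higher, lower, risen or fallen when its p after Benjamini-Hochberg adjustment was under 0.01 and its log2 fold change was beyond 1 in either direction, and "limma adjusted p" below refers to this test. All 9 members were tested, but *Cxcl9* passed the filter only through its *in vivo* libraries, so a difference at this gene was a condition of its being tested.

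The stretches before the start sites of *Cxcl1*, *Cxcl2*, *Cxcl10* and *Cxcl9* are shown because these genes stand for the NF-κB and interferon classes that the results contrast. Each is the 250 bases upstream of the start in RefSeq on GRCm38.p6, read 5′ to 3′ on the gene's strand. Capitals mark matches to 2 motifs searched on both strands, kappaB (GGGNNNTTCC, the NF-κB element) and the ISRE core (GAAANNGAAA, bound by interferon-activated factors).
*Cxcl1*, chr5:90890995-90891244, plus strand: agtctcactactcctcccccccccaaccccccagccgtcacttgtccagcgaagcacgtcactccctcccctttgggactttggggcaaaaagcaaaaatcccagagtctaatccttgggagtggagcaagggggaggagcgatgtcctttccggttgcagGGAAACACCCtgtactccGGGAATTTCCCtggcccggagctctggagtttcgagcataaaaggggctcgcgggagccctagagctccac
*Cxcl2*, chr5:90903649-90903898, plus strand: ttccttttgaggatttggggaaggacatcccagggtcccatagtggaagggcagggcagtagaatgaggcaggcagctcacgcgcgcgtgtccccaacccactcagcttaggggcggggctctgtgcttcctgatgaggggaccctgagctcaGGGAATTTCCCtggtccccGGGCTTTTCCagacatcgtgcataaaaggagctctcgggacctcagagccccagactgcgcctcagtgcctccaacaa
*Cxcl10*, chr5:92348890-92349139, minus strand: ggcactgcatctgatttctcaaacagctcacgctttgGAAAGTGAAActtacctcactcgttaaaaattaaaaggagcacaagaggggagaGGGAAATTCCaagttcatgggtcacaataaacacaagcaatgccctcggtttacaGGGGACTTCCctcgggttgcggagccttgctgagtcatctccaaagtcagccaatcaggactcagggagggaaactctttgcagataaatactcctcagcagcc
*Cxcl9*, chr5:92328080-92328329, minus strand: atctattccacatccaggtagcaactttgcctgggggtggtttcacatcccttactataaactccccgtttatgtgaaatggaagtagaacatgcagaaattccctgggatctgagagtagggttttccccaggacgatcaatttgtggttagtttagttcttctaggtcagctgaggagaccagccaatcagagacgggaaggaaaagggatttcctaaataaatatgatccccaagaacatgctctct
Of 32851 windows of this length, 4.65% held a kappaB match, 2.98% an ISRE core match and 7.02% a match to the GAS letters (TTCNNNGAA, an interferon-γ-activated element), which read the same on both strands. *Cxcl1* held kappaB matches at 89 to 80 and 71 to 61 bases upstream, and *Cxcl2* held them at 97 to 87 and 78 to 69. The stretch nearer the start in *Cxcl1* and the farther one in *Cxcl2* each hold 2 overlapping matches on opposite strands. *Cxcl10* held an ISRE core match at 213 to 204 and kappaB matches at 159 to 150 and 104 to 95 bases upstream. *Cxcl14* held an ISRE core match at 172 to 163 and a GAS match at 191 to 183, and these letters were not in the windows of *Cxcl9*, *Cxcl12* and *Cxcl13*. RefSeq windows were found for 7 of the 9 members, and *Cxcl5* and *Cxcl16* were not searched. A match is a description of letters and says nothing on its own about binding.

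At 1 week *Cxcl1*, *Cxcl9*, *Cxcl10*, *Cxcl12*, *Cxcl14* and *Cxcl16* were higher *in vivo* and *Cxcl13* was lower. At 2 weeks *Cxcl9*, *Cxcl12* and *Cxcl14* were higher *in vivo*, and the neutrophil-attracting *Cxcl2* and *Cxcl5* were lower. These calls are not equally firm. Those of *Cxcl1*, *Cxcl13* and *Cxcl16* at 1 week held in 11, 7 and 16 of 17 alternative settings of the test. That of *Cxcl2* at 2 weeks held in 7 of 17. *Cxcl9* is named although it passed the filter only through its *in vivo* libraries. *Cxcl1* and *Cxcl2* had the largest FPKM of the members in every group, *Cxcl1* first in both *in vivo* groups and *Cxcl2* first in both *in vitro* groups. The 2 genes were apart by more than their spread in each group except *in vivo* 2 weeks, where their libraries overlapped.

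**Figure D1:**
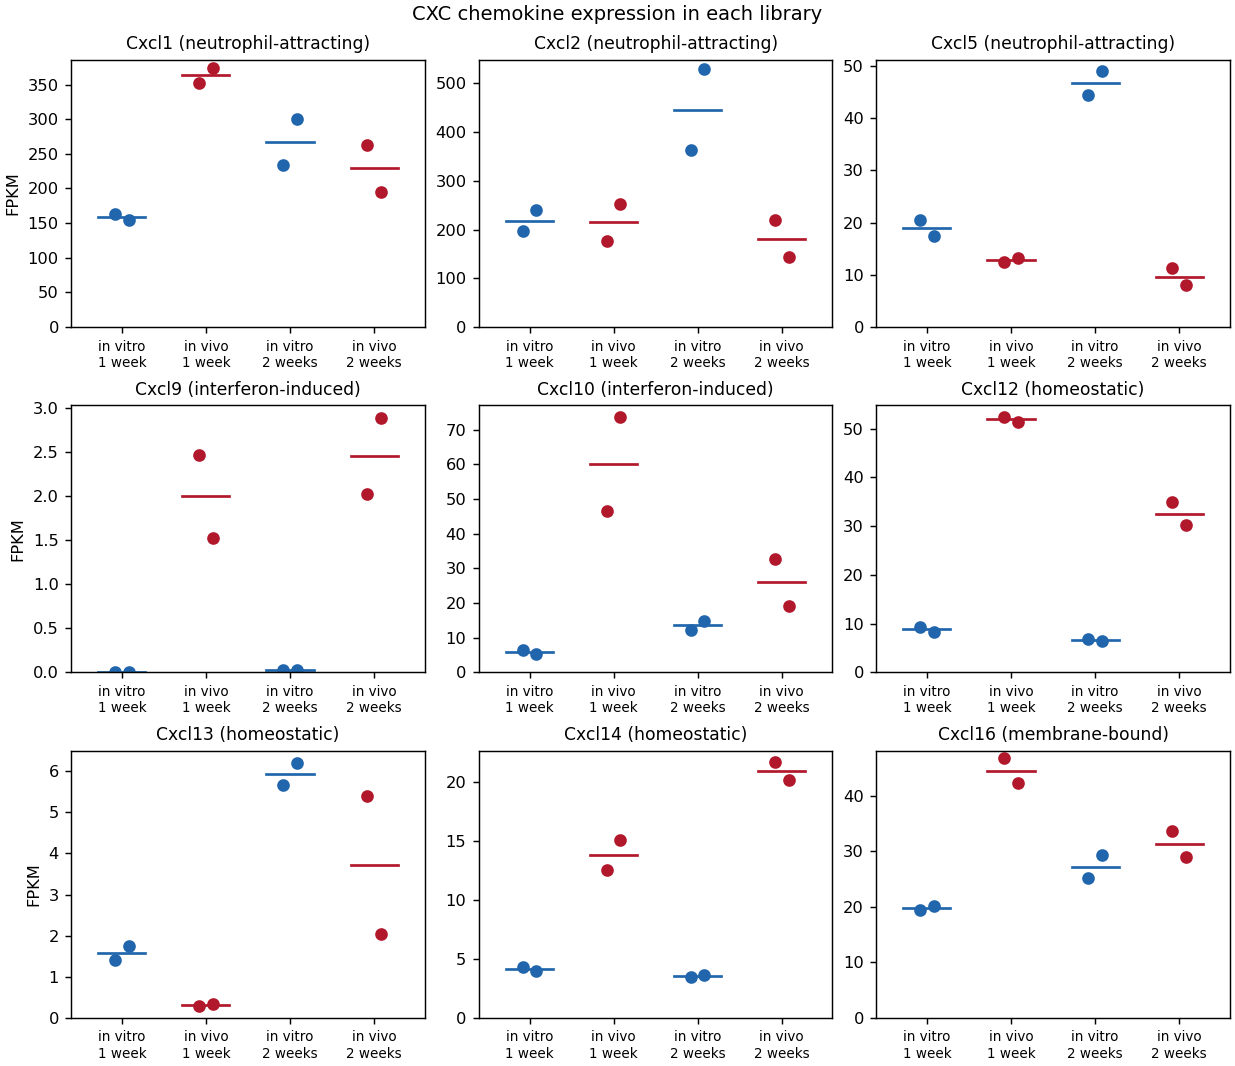
FPKM of the 9 CXC chemokine genes in each of the 8 libraries, 1 panel a gene with its own vertical axis from 0; points are libraries and horizontal lines group means, red *in vivo* and blue *in vitro*. *Cxcl12* and *Cxcl14* sit higher *in vivo* in both weeks, while *Cxcl5* reaches 44.4 and 49.1 *in vitro* at 2 weeks against 8.02 to 13.1 in the *in vivo* libraries.

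The make-up of the summed FPKM of the 9 genes differed with place. *Cxcl1*, *Cxcl2* and *Cxcl5* together made up 77.0% to 79.1% of the sum in the 4 *in vivo* libraries and 90.3% to 93.6% in the 4 *in vitro* libraries. *Cxcl9* and *Cxcl10* made up 4.87% to 9.12% *in vivo* and 1.18% to 1.76% *in vitro*. The homeostatic *Cxcl12*, *Cxcl13* and *Cxcl14* made up 8.12% to 11.7% *in vivo* and 1.74% to 3.57% *in vitro*, and *Cxcl16* 5.12% to 6.64% and 3.12% to 4.60%. None of these 4 shares overlapped between the *in vivo* and *in vitro* libraries. They are parts of the same sum, so a smaller share of the largest class leaves more to the others, and they are not separate results. The summed FPKM itself did overlap, at 450.1 to 823.5 *in vivo* and 419.9 to 937.8 *in vitro*. The shares are a description and were not tested.

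**Figure D2:**
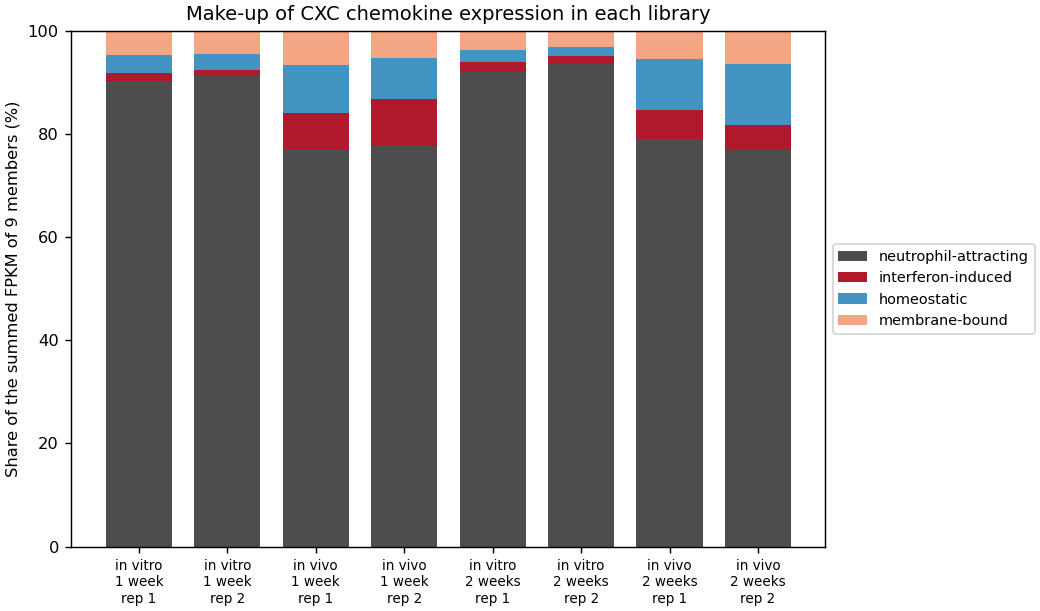
Share of the summed FPKM of the 9 CXC chemokine genes, in percent, taken by each class in each of the 8 libraries, as stacked bars. The neutrophil-attracting class takes 90.3% to 93.6% in the *in vitro* bars and 77.0% to 79.1% in the *in vivo* bars.

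Of the neutrophil-attracting class, *Cxcl1* (chr5:90891241-90893115, plus strand) was higher *in vivo* at 1 week and did not pass the threshold at 2 weeks. Its FPKM were 353 and 374 *in vivo* and 163 and 155 *in vitro* at 1 week, and 263 and 195 *in vivo* and 234 and 299.8 *in vitro* at 2 weeks. The 1-week libraries of the 2 places were well apart and the 2-week libraries overlapped. The log2 fold change of *in vivo* over *in vitro* was 1.19 (SE 0.16, limma adjusted p = 0.0013) at 1 week. At 2 weeks it was -0.23 (95% interval -0.61 to 0.16, limma adjusted p = 0.29). The call at 1 week was lost without the scaling between libraries, at a log2 fold change of 0.85, with quantile normalization, at 0.65, and with any of the 4 libraries of that week left out.

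*Cxcl2* (chr5:90903871-90905938, plus strand) was lower *in vivo* at 2 weeks. Its FPKM were 177 and 252 *in vivo* and 196 and 239.9 *in vitro* at 1 week, and 219 and 144 *in vivo* and 363 and 529 *in vitro* at 2 weeks. The libraries of the 2 places overlapped at 1 week and did not at 2 weeks. The log2 fold change was -0.04 (95% interval -0.69 to 0.61, limma adjusted p = 0.93) at 1 week and -1.30 (SE 0.28, limma adjusted p = 0.0071) at 2 weeks. That call was lost in 10 of 17 alternatives, among them the test without a filter, the test on the 4 libraries of that week alone, and leaving out *in vivo* 2 weeks replicate 2 or any *in vitro* library or *in vivo* 1-week library. *Cxcl2* shares 5.84% of its 50-base transcript windows with *Cxcl3*, and *Cxcl3* had 17 to 122 fragments where *Cxcl2* had 3283 to 14863.

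*Cxcl5* (chr5:90759360-90761624, plus strand) showed the largest gap of its class at 2 weeks. Its FPKM were 12.5 and 13.1 *in vivo* and 20.4 and 17.5 *in vitro* at 1 week, and 11.2 and 8.02 *in vivo* and 44.4 and 49.1 *in vitro* at 2 weeks. The *in vivo* libraries lay below the *in vitro* libraries in both weeks. The log2 fold change was -0.56 (95% interval -0.93 to -0.18, limma adjusted p = 0.028) at 1 week, which did not pass the threshold. At 2 weeks it was -2.29 (SE 0.16, limma adjusted p = 4.5e-05), 4.88 times lower on the scale of FPKM + 0.1, and this call held in 17 of 17 alternatives. The 3 genes did not keep 1 proportion to each other: *Cxcl2* was 0.503 to 0.833 times *Cxcl1* in the *in vivo* libraries and 1.21 to 1.76 times *in vitro*. *Cxcl5* was 0.0351 to 0.0427 times *Cxcl1* *in vivo* and 0.113 to 0.190 times *in vitro*.

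*Cxcl9* (chr5:92321347-92328079, minus strand), a target of interferon-γ, was detected almost entirely in the *in vivo* libraries. Its FPKM were 2.46 and 1.53 *in vivo* and 0 and 0 *in vitro* at 1 week, and 2.03 and 2.88 *in vivo* and 0.0240 and 0.0244 *in vitro* at 2 weeks. In fragments these were 87 and 60 against none at 1 week, and 69 and 96 against 1 and 1 at 2 weeks. At 1 week the mean FPKM *in vivo* was at least 30.4-fold higher than the level of 3 fragments per library *in vitro*. At 2 weeks the ratio was 101 (95% exact interval 27.6 to 844, counting error only) from 165 fragments against 2. The fitted log2 fold changes were 4.35 and 4.34. No p-value is given for them, because the gene passed the filter only through its *in vivo* libraries. A difference was thus a condition of the test. The fold changes depend on the pseudocount, at 7.61 and 6.15 with 0.01 and 1.56 and 1.74 with 1.

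*Cxcl10* (chr5:92346638-92348889, minus strand), induced by interferons and by NF-κB, was far more abundant than *Cxcl9*. Its FPKM were 46.5 and 73.6 *in vivo* and 6.32 and 5.32 *in vitro* at 1 week, and 32.8 and 19.1 *in vivo* and 12.2 and 14.9 *in vitro* at 2 weeks. The *in vivo* libraries lay above the *in vitro* libraries in both weeks, by a smaller gap at 2 weeks. At 1 week its log2 fold change was 3.31 (SE 0.30, limma adjusted p = 0.00019), 9.94 times higher on the scale of FPKM + 0.1. At 2 weeks it was 0.89 (95% interval 0.18 to 1.60, limma adjusted p = 0.043), which did not pass the threshold. *Cxcl10* overlaps *Art3*, a gene on the other strand with 88 to 418 fragments a library against 179 to 2158 of *Cxcl10*. The 2 genes share 3.59% of the 50-base transcript windows of *Cxcl10*, and whether strand was used in counting is not stated. *Art3* had 392 and 418 fragments in the *in vitro* 2-week libraries, where *Cxcl10* had 379 and 456, so the level of *Cxcl10* there is the least certain.

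Among the homeostatic genes *Cxcl12* (chr6:117168535-117181367, plus strand) was higher *in vivo* in both weeks. Its FPKM were 52.5 and 51.4 *in vivo* and 9.26 and 8.36 *in vitro* at 1 week, and 34.9 and 30.3 *in vivo* and 6.76 and 6.51 *in vitro* at 2 weeks. Libraries of a group lay close together and far from the other place. *In vivo* exceeded *in vitro* by a log2 fold change of 2.55 (SE 0.09, limma adjusted p = 2.8e-06) at 1 week and 2.28 (SE 0.09, limma adjusted p = 3.7e-06) at 2 weeks.

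*Cxcl14* (chr13:56288643-56296551, minus strand), made by fibroblasts and epithelia, was also higher *in vivo* in both weeks. Its FPKM were 12.5 and 15.1 *in vivo* and 4.30 and 3.96 *in vitro* at 1 week, and 21.8 and 20.2 *in vivo* and 3.44 and 3.62 *in vitro* at 2 weeks. Both *in vivo* libraries of 2 weeks lay above those of 1 week, and both *in vitro* libraries below. This gave a log2 fold change of 1.71 (SE 0.11, limma adjusted p = 3.7e-05) at 1 week and 2.54 (SE 0.11, limma adjusted p = 5.3e-06) at 2 weeks. The calls of *Cxcl12* and *Cxcl14* in both weeks held in 17 of 17 alternatives.

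*Cxcl13* (chr5:95956951-95961068, plus strand) was lower *in vivo* at 1 week, unlike *Cxcl12* and *Cxcl14*. Its FPKM were 0.297 and 0.334 *in vivo* and 1.41 and 1.75 *in vitro* at 1 week, and 5.39 and 2.05 *in vivo* and 5.66 and 6.20 *in vitro* at 2 weeks. In fragments the *in vivo* 1-week values were 4 and 5 and the *in vitro* ones 25 and 30. The 2 *in vivo* libraries of 2 weeks, with 70 and 26 fragments, differed most from each other. In the fit it stood at a log2 fold change of -2.01 (SE 0.40, limma adjusted p = 0.0063) at 1 week, a call lost in 10 of 17 alternatives, among them the limma voom fit on fragments, a pseudocount of 1, and leaving out any 1-week or *in vitro* 2-week library. At 2 weeks it was -0.81 (95% interval -1.75 to 0.13, limma adjusted p = 0.13). Without *in vivo* 2 weeks replicate 1 it was -1.49 and passed the threshold.

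*Cxcl16* (chr11:70453983-70459984, minus strand), the membrane-bound member, was higher *in vivo* at 1 week. Its FPKM were 46.7 and 42.2 *in vivo* and 19.3 and 20.1 *in vitro* at 1 week, and 33.7 and 29.01 *in vivo* and 25.2 and 29.2 *in vitro* at 2 weeks. The places were apart at 1 week and overlapped at 2 weeks. The log2 fold change was 1.17 (SE 0.10, limma adjusted p = 0.00018) at 1 week, and 0.83 without the scaling between libraries, where the call was lost. At 2 weeks it was 0.20 (95% interval -0.04 to 0.45, limma adjusted p = 0.15), and it turned to -0.13 without the scaling. *Cxcl16* overlaps *Zmynd15* on the other strand and shares 16.9% of its 50-base transcript windows with it. *Zmynd15* had 381 to 410 fragments *in vivo* at 1 week and 98 to 132 *in vitro*, where *Cxcl16* had 1651 to 1660 and 899 to 905, so its fold is uncertain if strand was not used.

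**Figure D3:**
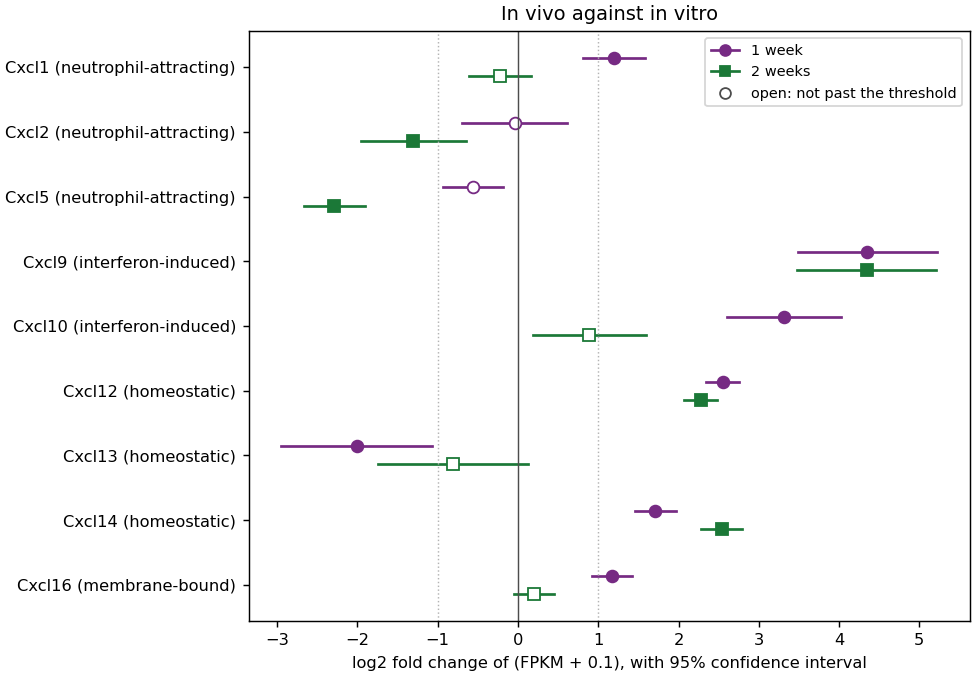
Log2 fold change of *in vivo* over *in vitro* on the scale of FPKM + 0.1 for each CXC chemokine gene, with 95% confidence intervals, from 2 libraries a group; purple circles are 1 week, green squares 2 weeks, open symbols did not pass the threshold, and dotted lines mark a log2 fold change of 1 in either direction. *Cxcl9*, *Cxcl12* and *Cxcl14* lie to the right of the dotted line in both weeks, and *Cxcl5* moves from -0.56 to -2.29.

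In counts, 6 of 9 members were higher *in vivo* at 1 week and 1 was lower, where 7.79% of all tested genes were higher and 5.07% lower. At 2 weeks 3 were higher and 2 lower, against 9.02% and 8.05% of all tested genes. *Cxcl9* is counted among the higher members in both weeks, although it passed the filter only through its *in vivo* libraries. The median log2 fold change of the members was 1.19 at 1 week and 0.20 at 2 weeks, and that of all tested genes was -0.006 and -0.003. Without the scaling between libraries the median of all genes moved to -0.34 at 1 week and -0.33 at 2 weeks. The genes higher and lower were then 906 and 1562 at 1 week in place of 1224 and 796, and 1029 and 2097 at 2 weeks in place of 1417 and 1265. That setting moves all genes alike, and the log2 fold changes of *Cxcl1* and *Cxcl12* at 1 week were then 0.85 and 2.21.

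The difference between the weeks in the gap between *in vivo* and *in vitro* was tested as an interaction. It passed the threshold for 1 member, *Cxcl5*, which was lower (log2 difference -1.73, SE 0.22, limma adjusted p = 0.0073), against 0.573% of all tested genes higher and 1.15% lower. This call was lost in 10 of 16 alternatives, among them the test without a filter and the tests with any 1 of the 8 libraries left out. The log2 difference was -2.42 (95% interval -3.42 to -1.42, limma adjusted p = 0.018) for *Cxcl10*, -1.42 (-1.97 to -0.87, limma adjusted p = 0.014) for *Cxcl1* and -0.96 (-1.31 to -0.62, limma adjusted p = 0.012) for *Cxcl16*. For *Cxcl14* it was 0.83 (0.47 to 1.18, limma adjusted p = 0.022). These 4 did not pass the threshold, although *Cxcl10* and *Cxcl1* did in the voom fit on fragments, and *Cxcl1* also without the scaling or with quantile normalization. *Cxcl12*, at -0.27 (-0.57 to 0.02), and *Cxcl9*, at -0.01 (-1.23 to 1.21), were nearer 0, and the value of *Cxcl9* rests on *in vitro* libraries with 0 or 1 fragment. *Cxcl2* was at -1.26 (-2.19 to -0.34) and *Cxcl13* at 1.20 (-0.13 to 2.52).

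Between 1 and 2 weeks *in vivo*, 1 of 9 members rose and none fell, against 1.23% of all tested genes higher and 0.949% lower. That member was *Cxcl13*, with a log2 fold change of 3.05 (SE 0.40, limma adjusted p = 0.0047), a call lost in 10 of 17 alternatives, among them leaving out any 1-week or *in vitro* 2-week library. *Cxcl12* had a log2 fold change of -0.67 (limma adjusted p = 0.0047), which is under the fold required. The other genes with a log2 fold change below 0 did not pass: *Cxcl10* at -1.22 (95% interval -1.93 to -0.52), *Cxcl1* at -0.68 (-1.07 to -0.30), *Cxcl16* at -0.50 (-0.75 to -0.26), *Cxcl5* at -0.43 (-0.80 to -0.05) and *Cxcl2* at -0.25 (-0.90 to 0.40). *Cxcl14* was at 0.61 (0.35 to 0.86) and *Cxcl9* at 0.30 (-0.56 to 1.17). In the voom fit *Cxcl10* passed as fallen.

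In culture, 1 of 9 members rose between 1 and 2 weeks and none fell, against 2.76% of all tested genes higher and 1.05% lower. *Cxcl5* rose, with a log2 fold change of 1.30 (SE 0.16, limma adjusted p = 0.0024), and this call was lost when any of the 4 *in vitro* libraries was left out or those 4 were tested alone. *Cxcl13* was at 1.85 (95% interval 0.91 to 2.79, limma adjusted p = 0.017), *Cxcl10* at 1.20 (0.49 to 1.91), *Cxcl2* at 1.01 (0.36 to 1.66), *Cxcl1* at 0.74 (0.35 to 1.12) and *Cxcl16* at 0.46 (0.21 to 0.71), none past the threshold. *Cxcl13* passed in the voom fit and without either *in vivo* 2-week library, and *Cxcl2* in the voom fit. The estimates for *Cxcl12* and *Cxcl14* were -0.40 (-0.61 to -0.20) and -0.22 (-0.47 to 0.03). *Cxcl9*, at 0 or 1 fragment in each of these libraries, has no fold. The comparisons by place and by time share libraries and are not independent of each other.

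**Figure D4:**
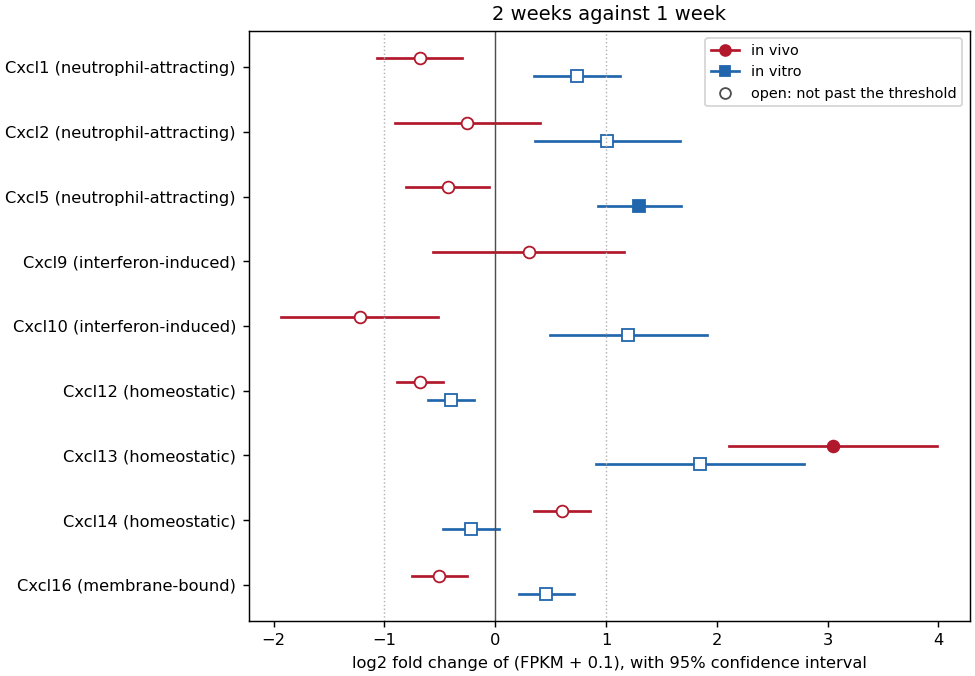
Log2 fold change of 2 weeks over 1 week on the scale of FPKM + 0.1 for each CXC chemokine gene, with 95% confidence intervals, from 2 libraries a group; red circles are *in vivo*, blue squares *in vitro*, and open symbols did not pass the threshold. *Cxcl1*, *Cxcl5*, *Cxcl10* and *Cxcl16* have intervals below 0 *in vivo* and above 0 *in vitro*, though the filled symbols are *Cxcl13* *in vivo* and *Cxcl5* *in vitro*. *Cxcl9* *in vitro* is left out, with 0 or 1 fragment a library.

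Over the 8 libraries members correlated both within and across their classes. On log2(FPKM + 0.1), Pearson's r was 0.97 for *Cxcl9* with *Cxcl14*, 0.95 for *Cxcl9* with *Cxcl12*, and 0.92 for *Cxcl12* with *Cxcl14*. It was 0.97 for *Cxcl10* with *Cxcl16*, 0.89 for *Cxcl10* with *Cxcl1*, and 0.90 for *Cxcl2* with *Cxcl5*. *Cxcl1* with *Cxcl2* gave 0.25, although both belong to the neutrophil-attracting class, and *Cxcl5* with *Cxcl14* gave -0.86. The other pairs within a class were *Cxcl9* with *Cxcl10* at 0.82, *Cxcl1* with *Cxcl5* at 0.004, *Cxcl12* with *Cxcl13* at -0.64 and *Cxcl13* with *Cxcl14* at -0.35. *Cxcl9* had 0 or 1 fragment in each *in vitro* library, so its r mostly reflects the gap between the places. These are descriptions of 8 libraries in 4 groups of 2, which share place, depth and scaling.

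Among 8041 other protein-coding genes with a group mean FPKM of at least 5, the 3 most like each member over the 8 libraries were found by the same measure. *Tlr2*, a receptor for bacterial lipoproteins, and *Ccrl2* were among the 3 nearest *Cxcl2*, with r of 0.98 and 0.97. *Ccl7*, a monocyte-attracting chemokine, was among those nearest *Cxcl5* with an r of 0.995, and its mean FPKM was 128 and 79.4 *in vivo* and 255 and 850 *in vitro* at 1 and 2 weeks. *Nfkb2*, an NF-κB subunit, stood by *Cxcl10* with 0.98, and *Thbs1*, a matrix glycoprotein, by both *Cxcl10* and *Cxcl16*, with 0.99 and 0.98. *Cxcl9* had *Ly6a*, an interferon-inducible surface antigen, at 0.995, with mean FPKM of 154 and 157 *in vivo* and 2.67 and 3.05 *in vitro*. With *Cxcl9* at 0 or 1 fragment in each *in vitro* library, this r mostly reflects the gap between the places. *Tnc* and *Col11a1*, matrix genes, stood by *Cxcl12* with 0.998 each. *Cfi*, complement factor I, stood by *Cxcl1* with 0.96, *Lrig3* by *Cxcl14* with 0.998 and *Hagh* by *Cxcl13* with 0.99. With 8 libraries many genes reach such values.

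The receptors decide which cells can respond, and most leukocyte receptors of these chemokines were scarce in the sorted cells. The receptors of the members' main axes are named here whatever their test, a choice made after their values were seen. *Cxcr1* had no fragment in any library, which allows up to 3 a library, and *Cxcr2*, *Cxcr5* and *Cxcr6* had at most 8, 6 and 5 fragments. *Cxcr3* had group mean FPKM of 0.65 to 1.24, with log2 fold changes of -0.28 (limma adjusted p = 0.63) at 1 week and -0.66 (limma adjusted p = 0.23) at 2 weeks. *Cxcr4*, the CXCL12 receptor, averaged 52.8 FPKM in the heart and 25.9 in culture at 1 week, then 28.1 and 41.4. It was higher *in vivo* at 1 week (log2 fold change 1.03, limma adjusted p = 0.0052) and at -0.59 (limma adjusted p = 0.039) at 2 weeks.

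Of 12 listed receptors and binding proteins 8 were tested, of which 3 passed as higher and none as lower at 1 week, with 2 and 1 at 2 weeks. Among all tested genes the shares were 7.79% and 5.07% at 1 week, and 9.02% and 8.05% at 2 weeks, so 1 of 8 lower at 2 weeks is near that share. The median log2 fold change of the 8 was 0.73 and -0.19. *Ackr4*, a scavenger mainly of CC chemokines, was higher in both weeks (3.50 and 3.31), as was *Cd74*, the invariant chain, which also binds MIF (3.89 and 2.14). *Sdc4*, a heparan sulfate proteoglycan that binds chemokines, was lower at 2 weeks (-2.06). The interaction was negative and past the threshold for *Cd74* (-1.76) and *Sdc4* (-1.24). *Ackr3*, the scavenging receptor of CXCL12, rose *in vivo* between the weeks (1.18), where *Cxcl12* itself was at -0.67, and *Cd74* rose in both places (1.30 and 3.06). *Ackr4* (1.22) and *Sdc4* (1.07) also rose in culture.

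Of 8 related chemokines outside the members 4 were tested, and *Cx3cl1* alone passed the threshold, as higher *in vivo* in both weeks. That is 1 of 4, beside 7.79% of all tested genes higher at 1 week and 9.02% at 2 weeks. The median log2 fold change of the 4 was 2.16 and 1.61. *Cx3cl1*, fractalkine, is, like *Cxcl16*, made as a membrane-bound chemokine and shed. Its mean FPKM was 45.04 and 5.37 at 1 week and 58.4 and 10.8 at 2 weeks, *in vivo* and *in vitro*, with log2 fold changes of 3.05 and 2.42. It also rose in culture (1.00). *Cxcl3*, neutrophil-attracting and the neighbour of *Cxcl2*, did not pass in either week. At 1 week its FPKM were 1.78 to 2.11 *in vivo* and 0.325 to 0.427 *in vitro*, without overlap. These came from 73 to 96 and 17 to 23 fragments. At 2 weeks its FPKM were 1.29 to 3.09 and 0.537 to 1.45, and the libraries overlapped.

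Proteases that trim or shed these chemokines went in both directions. Of 13 listed genes 11 were tested, of which 4 passed as higher and 3 as lower at 1 week, with 3 and 2 at 2 weeks, beside 7.79% and 5.07% of all tested genes at 1 week and 9.02% and 8.05% at 2 weeks. Their median log2 fold change was 0.22 and 0.21. *Dpp4*, which inactivates CXCL10 and CXCL12 by cutting their N terminus, was lower in both weeks (-2.86 and -3.04), from mean FPKM of 3.20 and 4.69 *in vitro* to 0.35 and 0.48 *in vivo*. *Mmp2*, which also cuts CXCL12, was higher by 1.65 in both weeks, and *Ctsk* (2.11 and 2.12) and *Fap* (1.26 and 1.45) were higher too. *Mmp13* was lower in both weeks (-1.88 and -3.52), *Mmp3* lower at 1 week (-1.61) and *Mmp14* higher at 1 week (1.27). Between the weeks *in vivo* *Mmp3* rose (1.41) and *Mmp14* fell by just over the fold threshold, and the interaction of *Mmp14* was lower (-1.06). *Adam10* and *Adam17*, the sheddases of CXCL16, were at log2 fold changes of -0.36 to 0.23 by place and did not pass the threshold.

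The lists of NF-κB and interferon signalling genes, the pathways to which the members' classes belong as background, were counted the same way, and are to be read against 7.79% higher and 5.07% lower of all tested genes at 1 week and 9.02% and 8.05% at 2 weeks. Of 22 NF-κB genes, 3 were higher *in vivo* at 1 week, *Nfkbia* (2.06), *Tnfaip3* (1.88) and *Nfkb1* (1.07), and none was lower. The first 2 are feedback inhibitors that NF-κB itself induces. At 2 weeks *Tlr3* was higher (1.15), and *Zc3h12a* (-1.42), an RNase that degrades inflammatory mRNAs, and *Il17ra* (-1.21) were lower, counts near or under those shares. The median of the list was 0.41 at 1 week and -0.11 at 2 weeks, beside members *Cxcl1*, *Cxcl2* and *Cxcl5* at a median of -0.04 and -1.30. *Nfkbia* was the only gene of the list to rise in culture between the weeks (1.15), and none changed *in vivo*.

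Of 15 interferon signalling genes, 4 were higher at 1 week, *Irf7* (5.19), *Usp18* (4.49), *Stat2* (2.41) and *Irf9* (2.24), and none was lower. At 2 weeks *Usp18* (4.36), *Irf7* (3.63), *Stat2* (1.91), *Irf9* (1.86) and *Socs1* (1.11) were higher, and *Irf1* (-1.14) and *Irf8* (-1.11) were lower. *Irf1*, a factor that activates *Cxcl9* and *Cxcl10*, rose in culture (1.30), and its interaction was -1.64 (limma adjusted p = 0.0034). The median of these genes was 0.36 and 0.27.

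The sorted cells also held RNA of other cell types, and in such bulk samples fewer cells of a type and less RNA per cell cannot be told apart. Counts of called markers, here and in the next paragraph, are to be read against the shares of all tested genes. These were 7.79% higher and 5.07% lower at 1 week, and 9.02% and 8.05% at 2 weeks. All 10 fibroblast markers were detected, and their summed FPKM was 9647 to 12885 *in vivo* and 2238 to 3618 *in vitro*, with 6 of 10 higher *in vivo* in each week. All 16 macrophage markers were detected, with a summed FPKM of 2199 to 3547 *in vivo* and 5472 to 6715 *in vitro*. Of these, 2 passed as higher and 1 as lower at 1 week, with 1 and 9 at 2 weeks. The 1-week counts and the 1 higher at 2 weeks are near the shares of all tested genes. Without *Lyz2*, the lysozyme gene, the macrophage sum was 1224 to 2094 *in vivo* and 2202 to 3004 *in vitro*. All 6 mesothelial markers were lower *in vivo* in both weeks, with sums of 13.1 to 31.1 *in vivo* and 234 to 487 *in vitro*. Endothelial sums were 57.7 to 72.03 *in vivo* and 19.0 to 44.1 *in vitro*, and 5 of 6 markers were higher *in vivo* at 1 week and 2 of 6 at 2 weeks. All 5 cardiomyocyte markers were lower *in vivo* in both weeks, at 9.12 to 19.6 against 105 to 622.

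Of 7 neutrophil markers *Ly6g* was at 0 in every library and the sums were 3.33 to 9.57 *in vivo* and 2.49 to 3.69 *in vitro*. T cell sums were 1.76 to 3.25 and 2.49 to 2.83, and dendritic cell sums 2.76 to 3.87 and 2.91 to 4.41. Of these 3 lists, 2 of 7, 2 of 7 and 3 of 5 genes were tested, none was higher *in vivo* in either week, and 1 T cell and 1 dendritic cell marker were lower at 2 weeks. The part of the fibroblast, macrophage, mesothelial and endothelial shares in the differences of the members was not tested.

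**Figure D5:**
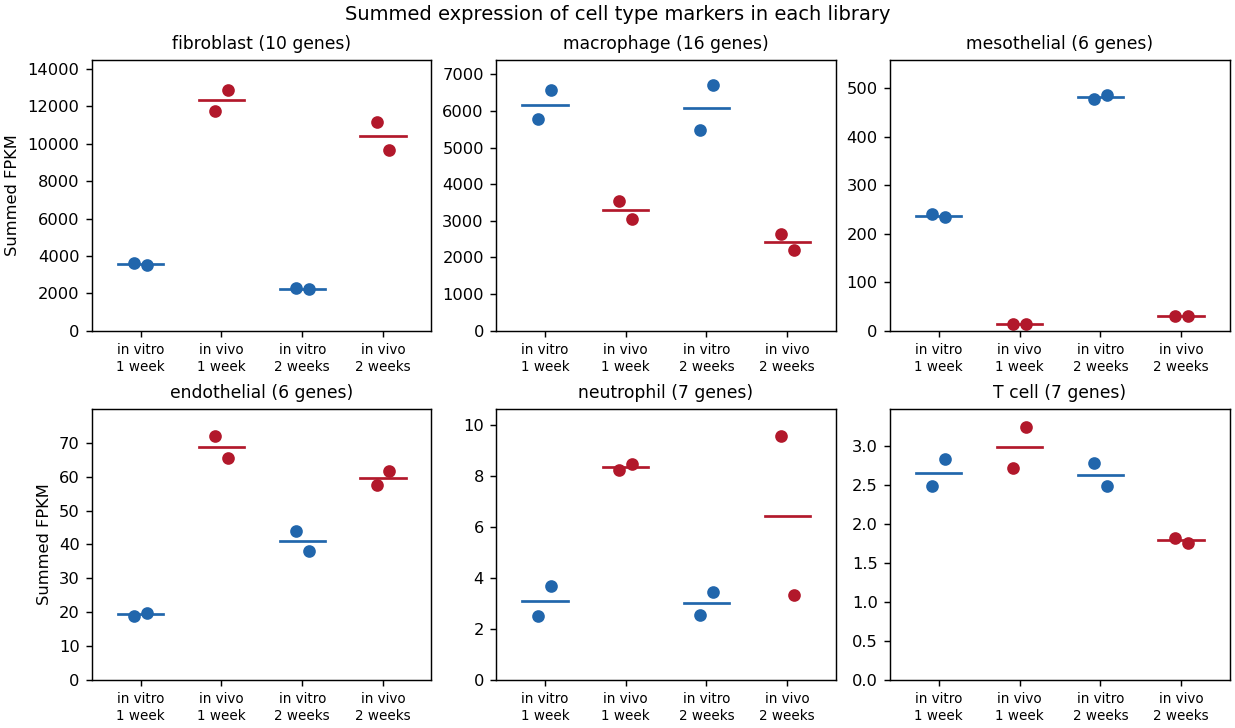
Summed FPKM of 6 lists of cell type markers in each of the 8 libraries, with each vertical axis from 0; points are libraries and lines group means, red *in vivo* and blue *in vitro*. Fibroblast and endothelial sums are higher *in vivo*, macrophage and mesothelial sums higher *in vitro*, and neutrophil and T cell sums stay below 10.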

How the data were processed

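RNA from sorted eGFP+ MICFs was prepared for sequencing with a SMARTer mRNA kit per the labels, and a provider made, sequenced and mapped the libraries. The submitters' processing notes name CASAVA, HISAT2 2.0.5 and mm10. The counting tool and its strand setting are not given in the sources used here. The authors deposited FPKM for 54532 genes. Their differential expression analysis used DESeq2, which needs counts and was not repeated. Multiplied by gene length, 100% of FPKM values came out as whole fragments (tolerance 0.05). Limits from fragments cover counting error only.

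Groups were compared on log2(FPKM + 0.1) by limma 3.58.1 in R 4.3.3, with 4 group means over all 8 libraries, moderated variances with an intensity trend, and Benjamini-Hochberg adjustment over 15708 genes. Python 3.11.15, numpy 2.4.6, pandas 2.3.3 and matplotlib 3.10.9 were used for the rest. The procedure was tested on simulated data. The members, lists, markers and tests were chosen with earlier results of these data known. All 9 members are named. From the lists, called genes are named, at most 6 a list and comparison by absolute log2 fold change, apart from the receptors and *Cxcl3*, *Adam10*, *Adam17*, *Art3* and *Zmynd15*, chosen after their values were seen. The result for 1 gene of the interferon list is not reported here. Of the 3 genes most like each member, some are named, mostly those with a role described here. *Ccrl2*, *Lrig3* and *Hagh* are named without one. Gene coordinates are those in the deposited table, whose starts and ends equal GENCODE vM21 (GRCm38) for 98.3% of 54409 shared identifiers. Alternatives were pseudocounts of 0.01 and 1, no filter, a filter of FPKM 1, no scaling between libraries, quantile normalization, limma voom on fragments, a replicate block, only the libraries compared, and each library left out.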

Additional observations from a re-analysis of the deposited data

Results flagged for a closer look

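The gap between *in vivo* and *in vitro* differed between the weeks for *Cxcl5*, with a log2 difference of -1.73 by the interaction test (limma adjusted p = 0.0073), from -0.56 at 1 week to -2.29 at 2 weeks. The FPKM behind it were 12.5 and 13.1 against 20.4 and 17.5 at 1 week, and 11.2 and 8.02 against 44.4 and 49.1 at 2 weeks. With any 1 library left out the call was lost, at log2 differences of -1.97 to -1.49. Several marker sums moved with place, given here as *in vivo* and then *in vitro*. Macrophage sums were 3056 to 3547 and 5776 to 6579 at 1 week, and 2199 to 2651 and 5472 to 6715 at 2 weeks. Mesothelial sums were 13.1 to 14.6 and 234 to 240, then 30.8 to 31.1 and 477 to 487. Cardiomyocyte sums were 9.12 to 11.3 and 105 to 115, then 12.9 to 19.6 and 550 to 622. Fibroblast and endothelial sums were higher *in vivo* in both weeks. The part of these cell types in the *Cxcl5* difference was not tested.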

How the results depend on the processing

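Of 756 values of the members recomputed under the alternatives, 685 kept their direction and their side of the threshold, 52 lost a call, 10 gained one and 9 changed sign, and the causes were not tested. Members lower *in vivo* at 1 week went from 1 to 0 with a pseudocount of 1, without a filter and in the voom fit, and members lower at 2 weeks from 2 to 1 without a filter and on the 4 libraries of the contrast. For the interaction, members lower went from 1 to 0 without a filter, 2 without the scaling or with quantile normalization and 3 with voom. Members rising *in vivo* went from 1 to 0 with a pseudocount of 1, without a filter or on 4 libraries, and members falling from 0 to 1 with voom. Members rising *in vitro* went from 1 to 3 with voom and 0 on 4 libraries, a fit with fewer samples.

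Over all genes, those lower at 1 week numbered 485 with a pseudocount of 1 and 1562 without the scaling (796 as reported), and those lower at 2 weeks 2097 without it (1265). Interaction calls were 27 higher and 45 lower without a filter, and 143 and 330 with voom (90 and 181). *In vivo* over time, 302 genes rose with voom (193), 82 fell with a pseudocount of 1 (149), and 0 rose or fell on 4 libraries. *In vitro*, 81 fell with a pseudocount of 1, 109 without a filter and 273 with voom (165), and 0 rose (434) or fell on 4 libraries.

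Replicate numbers were checked as pairs: the deviations of same-numbered libraries correlated at -0.020 at 1 week and -0.022 at 2 weeks across genes. With 2 libraries a group, this check cannot decide whether same-numbered libraries came from the same batch of cells. With the replicate block, members lower were 0 at 1 week, 1 at 2 weeks and 0 for the interaction, 0 members rose *in vivo*, interaction calls were 11 higher and 16 lower, and 99 genes fell *in vivo*.

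With 1 library left out, members higher *in vivo* were 5 to 6 at 1 week and 3 at 2 weeks. Members lower were 0 to 1, 1 to 3 and, for the interaction, 0. Members rising were 0 to 1 *in vivo* and 0 to 2 *in vitro*. All genes lower at 1 week were 466 to 831, interaction calls 1 to 37 higher and 1 to 49 lower, rises 10 to 133 *in vivo* and 154 to 400 *in vitro*, and falls 1 to 103 and 44 to 156. *Cxcl2* then ranged from -0.29 to 0.21 at 1 week and from -0.56 to 0.052 over time *in vivo*, and *Cxcl9* from -0.34 to 0.32 for the interaction and from -0.026 to 0.63 over time *in vivo*. Log2 values that changed sign otherwise were -0.13 for *Cxcl16* at 2 weeks without the scaling and 0.18 for the *Cxcl9* interaction with a pseudocount of 1.

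With 2 libraries a group, small differences are not detectable, and low counts limit *Cxcl9* in culture and *Cxcl13* *in vivo* at 1 week.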
